A study of Mus musculus with 8 samples.

Results

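The immunoglobulin heavy chain variable segments (Ighv) were examined in bone marrow B cells of sham-operated and ovariectomized mice. Members were taken as the rows of the count table whose Ensembl identifier maps to a mouse symbol beginning with Ighv, which gave 185 of 54532 rows. All 185 matched an entry of RefSeq on GRCm38.p6, the assembly behind the mm10 build named in the submitters' processing notes. RefSeq lists 120 of them as V segments and 65 as V segment pseudogenes. They lie on chromosome 12, at chr12:113572929-116009954, and belong to 16 families by the number before the dash in their symbol. As 4 of the identifiers share the 2 symbols Ighv1-13 and Ighv5-8, the rows carry 183 symbols.

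A heavy chain gene is put together in each developing B cell by V(D)J recombination, in which the RAG1 and RAG2 proteins join 1 of many V segments to a joined D and J segment. The V segment encodes most of the part of the antibody that touches antigen, and segments of similar sequence are grouped into V families. The V segments lie in a row upstream of the D and J segments, with the Ighv1 family making up most of the far end, and contraction of the locus brings far segments to the recombined D and J. The joined V segment is transcribed together with the constant gene, so its RNA reads out both the repertoire of the cells and how much heavy chain message each cell makes. In marrow, pro-B and pre-B cells, immature and recirculating B cells and plasma cells all carry such messages, and plasma cells make far more of them per cell than B cells do.

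The 3 libraries of the Sham group came from mice with sham surgery and the 3 of the OVX group from mice with ovariectomy, the surgical removal of the ovaries that serves as a model of estrogen loss after menopause. All were libraries of bone marrow B cells sorted by MACS, which uses antibodies on magnetic beads. The labels of these libraries give the surgery, the cell type and a replicate number, and no strain, genotype, age, interval after surgery or batch. The study counts its groups in mice, but no label ties a library to a mouse, so the p-values below measure the spread between these libraries.

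Total counts per library were between 23838775 and 33136701. The B lineage marker Cd79a, which encodes a signalling chain of the B cell receptor, had between 1548 and 1883 CPM in the 6 libraries (CPM is the count relative to library size, with the size corrected by edgeR TMM factors). Markers of other cells were present and uneven. The 11 neutrophil genes took between 0.243% and 0.900% of counts in Sham and between 0.106% and 0.389% in OVX, and all 11 had a log2 fold change below 0. All 6 macrophage, all 6 T cell and all 6 erythroid genes also had values below 0, with the sums at 0.0413% to 0.147%, 0.0016% to 0.0032% and 0.0208% to 0.0443% of counts in Sham and 0.0369% to 0.121%, 0.0011% to 0.0034% and 0.0129% to 0.0268% in OVX. Most of the T cell sum was Cd4, with 272 to 1081 counts per library, while Cd3e had 3 to 33. None of the marker genes of other cells was at 0 in all libraries, and their part in the Ighv values was not tested.

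Ighv rows held 30355, 51844 and 40281 counts in Sham and 31501, 38548 and 40448 in OVX, where values here and below are given in the order of the replicate numbers. They made up between 0.122% and 0.187% of all counts of a library. The summed Ighv level was 1281, 1826 and 1621 CPM in Sham and 1283, 1360 and 1224 CPM in OVX. Sham replicate 2 was the highest of the 6 libraries, and Sham replicate 1 lay among the OVX libraries. The means were 1576 ± 275 CPM in Sham and 1289 ± 68.2 CPM in OVX (SD, n = 3 per group), and the groups overlapped (p = 0.3 by two-sided exact permutation, where 0.1 is the smallest p that 3 libraries against 3 allow). In the fit across all genes the log2 fold change of the total was -0.30 (standard error 0.14), and it did not pass the test (adjusted p = 0.812, edgeR quasi-likelihood F test, Benjamini-Hochberg adjusted). It was -0.17 without Sham replicate 2 and -0.42 without Sham replicate 1. In bulk RNA, fewer cells of a type and less RNA per cell cannot be told apart.

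Set against the constant genes of the same locus, the difference between groups was small. Ighv counts per 100 counts of the 8 heavy chain constant genes were 17.4, 19.4 and 18.3 in Sham and 16.6, 17.1 and 16.6 in OVX. Every OVX library lay below every Sham library, by as little as 17.1 against 17.4. The means were 18.4 ± 0.992 and 16.8 ± 0.297 (SD, n = 3 each; p = 0.1 by two-sided exact permutation, adjusted p = 1 over 10 measures per library). Per 100 counts of Ighm, the constant gene of IgM, the values were 19.5, 31.1 and 25.6 in Sham and 20.9, 19.1 and 18.5 in OVX, and these groups overlapped (p = 0.2 by two-sided exact permutation).

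The constant genes differed in how far they varied between libraries. Igha, the constant gene of IgA, took 4.29%, 22.4% and 20.9% of constant gene counts in Sham and 11.8%, 3.95% and 2.58% in OVX. Sham replicates 2 and 3 and OVX replicate 1 were high, and Sham replicate 1 sat with OVX replicates 2 and 3. Ighm took 89.0%, 62.4% and 71.6% in Sham and 79.6%, 89.6% and 89.6% in OVX, which ranks the libraries in the reverse order of Igha. Of the 7 constant genes with enough counts to be tested, 6 had a log2 fold change below 0 and none passed the test. Ighg1, the constant gene of IgG1, had the lowest, -2.15 (standard error 0.55, adjusted p = 0.811 by the edgeR quasi-likelihood F test), while Ighm had 0.08.

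**Figure D1:**
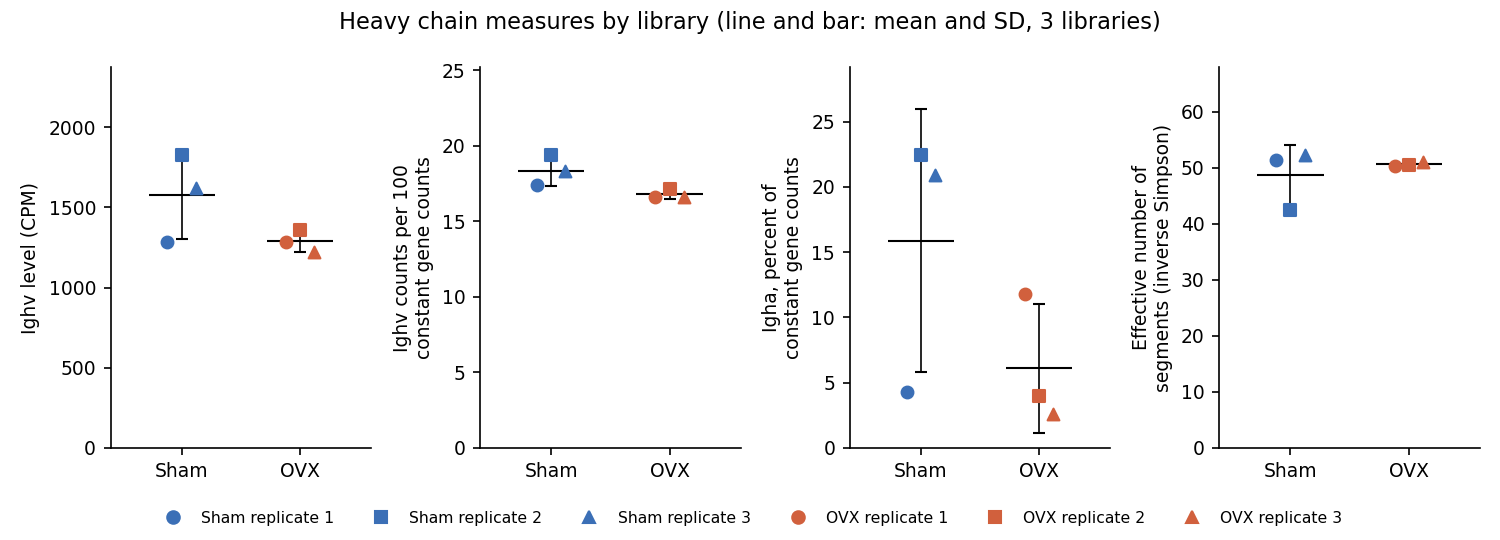
Ighv level in CPM, Ighv counts per 100 constant gene counts, Igha as a percent of constant gene counts and the effective number of V segments (inverse Simpson number) in each library, with points for libraries, a line for the group mean and a bar for 1 SD (n = 3 per group). Sham replicate 2 has the highest Ighv level, 1826 CPM, and the lowest effective number of segments, 42.5, and the Sham and OVX points overlap in every panel but the second.

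Of the 185 members, 41 had no count in any library, 144 had a count in at least 1 and 117 were counted in every library. The 41 were 36 pseudogenes and the 5 V segments Ighv13-1, Ighv1-16, Ighv7-2, Ighv16-1 and Ighv1-19-1, which were named after their values were seen. Between 129 and 133 members were counted per library. A count of 0 allows a share of up to 0.00579% of Ighv counts in Sham replicate 2, which had the most Ighv counts (3 counts of the Ighv total). In Sham replicate 1, which had the fewest, it allows up to 0.00988%. The counts carry no molecular identifiers, so these limits and the intervals below cover counting error only. Members that RefSeq lists as pseudogenes held 2.64% to 3.12% of Ighv counts, most of them in Ighv7-3 and Ighv7-1. Whether these segments are pseudogenes in the mice studied was not tested.

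Ighv1-26 (ENSMUSG00000094546, chr12:114788372-114788665) was the most counted segment in all 6 libraries. Its counts were 1806, 4238 and 2077 in Sham and 1807, 2437 and 2560 in OVX. As a share of Ighv counts this was 5.95%, 8.17% and 5.16% in Sham and 5.74%, 6.32% and 6.33% in OVX. The 95% Wilson interval in Sham replicate 2 was 7.94% to 8.41%, above the value of every other library, and the Sham libraries held both the highest and the lowest share. Its log2 fold change of level was -0.38 (standard error 0.24), and -0.02 without Sham replicate 2.

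Ighv9-3 (chr12:114140692-114141122) was the next most counted segment in 5 of the 6 libraries. It had 4.91%, 4.02% and 4.37% of Ighv counts in Sham and 4.52%, 4.66% and 4.77% in OVX. In Sham replicate 2 its place was taken by Ighv1-53 (chr12:115158445-115158835). Ighv1-53 had 2660 counts there, 5.13% of Ighv counts, against 662 and 909 counts in the other two Sham libraries and 729, 746 and 838 in OVX, where it had 1.94% to 2.31%. Its log2 fold change of level was -0.96 (standard error 0.42), and -0.25 without Sham replicate 2.

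The 12 segments with the highest mean share, which were Ighv1-26, Ighv9-3, Ighv1-64, Ighv1-72, Ighv1-55, Ighv1-53, Ighv1-9, Ighv1-81, Ighv1-82, Ighv3-6, Ighv6-3 and Ighv1-18, held 33.7% to 38.7% of Ighv counts. Of these, 9 are of family 1, which is listed with the most segments. Their mean shares below the first 2 lay close together, and the order of neighbours among them changed from library to library. Ighv1-72, for instance, had 3.17%, 2.28% and 2.61% in Sham and 3.20%, 2.95% and 2.99% in OVX, and Ighv1-55 had 2.87%, 2.20% and 2.60% in Sham and 3.56%, 3.05% and 2.32% in OVX. RefSeq gives the members lengths of 277 to 582 bases with a median of 294. After each count was divided by this length the same 12 segments led, with Ighv1-26 and Ighv9-3 still at the top. Reads of near-identical family 1 segments may have been split or assigned to a neighbour, so the values of single family 1 segments are uncertain.

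**Figure D2:**
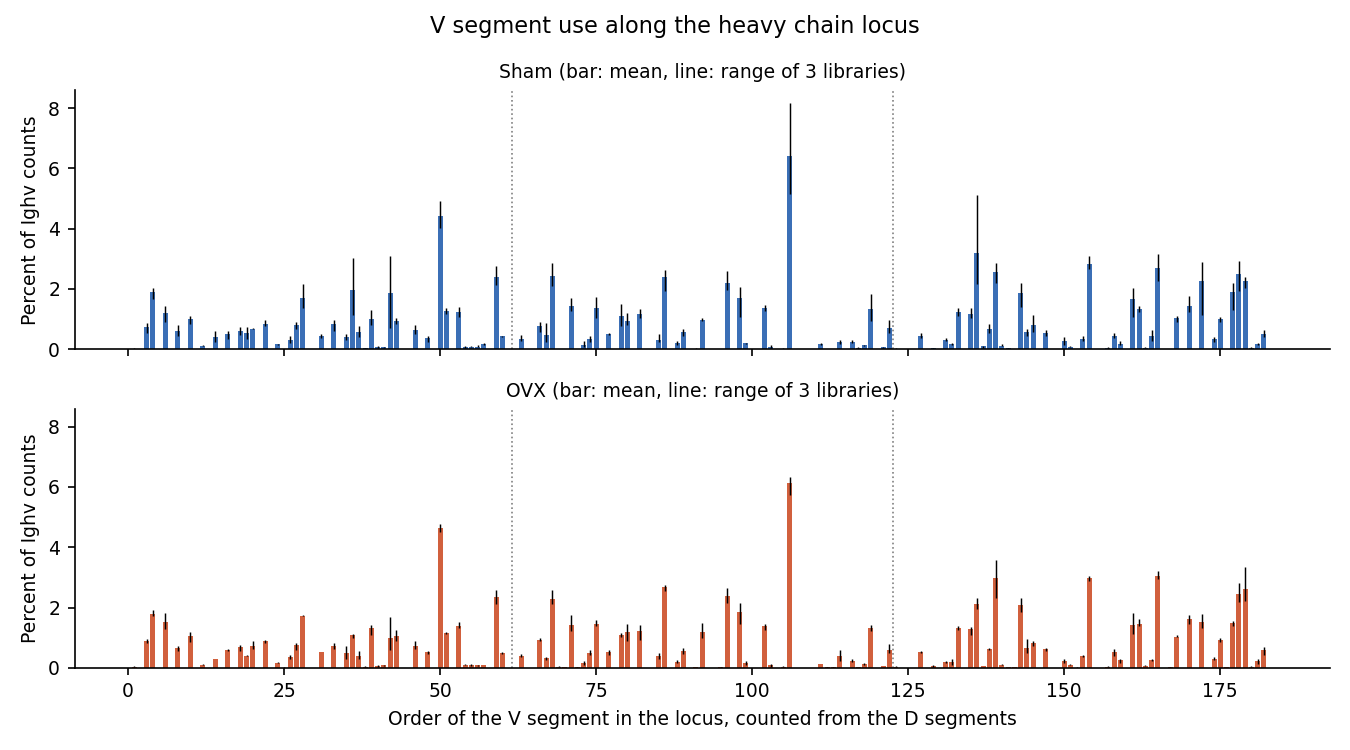
Percent of Ighv counts of each of the 183 symbols in Sham (upper panel) and OVX (lower panel), in the order of the segments counted from the D segments, with bars for the mean and lines for the range of 3 libraries; dotted lines divide the order into 3 parts of 61 symbols. Ighv1-26 is the tallest bar in both panels, and the longest range lines, at Ighv1-26, Ighv1-53 and Ighv11-2, are in Sham.

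The evenness of use was alike in 5 of the 6 libraries. The inverse Simpson number, the number of equally used segments that would give the same chance of drawing the same segment from 2 reads, was 51.4, 42.5 and 52.3 in Sham and 50.4, 50.6 and 51.0 in OVX. Sham replicate 2 was the one low library, and the other 5 lay between 50.4 and 52.3. The most counted 20 segments held 50% of Ighv counts in those 5 libraries, and 17 did so in Sham replicate 2. The difference in inverse Simpson number was 1.94 higher in OVX (p = 1 by two-sided exact permutation, n = 3 per group), and it was -1.18 without Sham replicate 2.

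Family 1 held more than the other families together in every library. Its share of Ighv counts was 56.7%, 57.3% and 55.5% in Sham and 56.7%, 56.3% and 56.1% in OVX. The means were 56.5% ± 0.922 and 56.4% ± 0.286 (SD, n = 3 per group), a difference of -0.10 percentage points (p = 0.9 by two-sided exact permutation) that turned to 0.30 without Sham replicate 2, to 0.01 without Sham replicate 1 and to 0.03 without OVX replicate 3. This family, known also as J558, has 93 of the 185 members, of which 56 had enough counts to be tested. Its use was spread widely, since the leading segment Ighv1-26 made up 11.3% of it.

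Families 5 and 9 followed. Family 5 had 7.88%, 6.22% and 8.33% in Sham and 7.45%, 7.93% and 8.73% in OVX, and Sham replicate 2 was lowest. Its mean was 0.56 percentage points higher in OVX, while the difference was -0.0654 without Sham replicate 2. Family 9 had 6.60%, 5.18% and 5.84% in Sham and 6.12%, 6.51% and 6.49% in OVX, and Ighv9-3 made up 74.3% of it. Family 2, known as Q52, had between 4.90% and 5.33% in all 6 libraries. Per RefSeq length, families 2 and 9 traded places, with mean shares of 5.06% and 5.03%.

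The next 6 families by mean share were 14, 8, 6, 3, 10 and 7, and the Sham and OVX libraries of each overlapped. Family 14 had 4.11%, 3.37% and 3.25% in Sham and 4.39%, 4.29% and 4.09% in OVX, where OVX replicate 3 lay just below Sham replicate 1 (p = 0.2 by two-sided exact permutation, adjusted p = 0.667 over the 15 counted families). Family 6 had 3.39%, 4.62% and 3.64% in Sham and 4.43%, 3.48% and 3.46% in OVX, and Sham replicate 2 and OVX replicate 1 stood above the other 4. Families 13 and 15 were small, with 0.569% to 0.979% and 0.239% to 0.494% of Ighv counts. Family 16, which has 1 member, had no count.

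**Figure D3:**
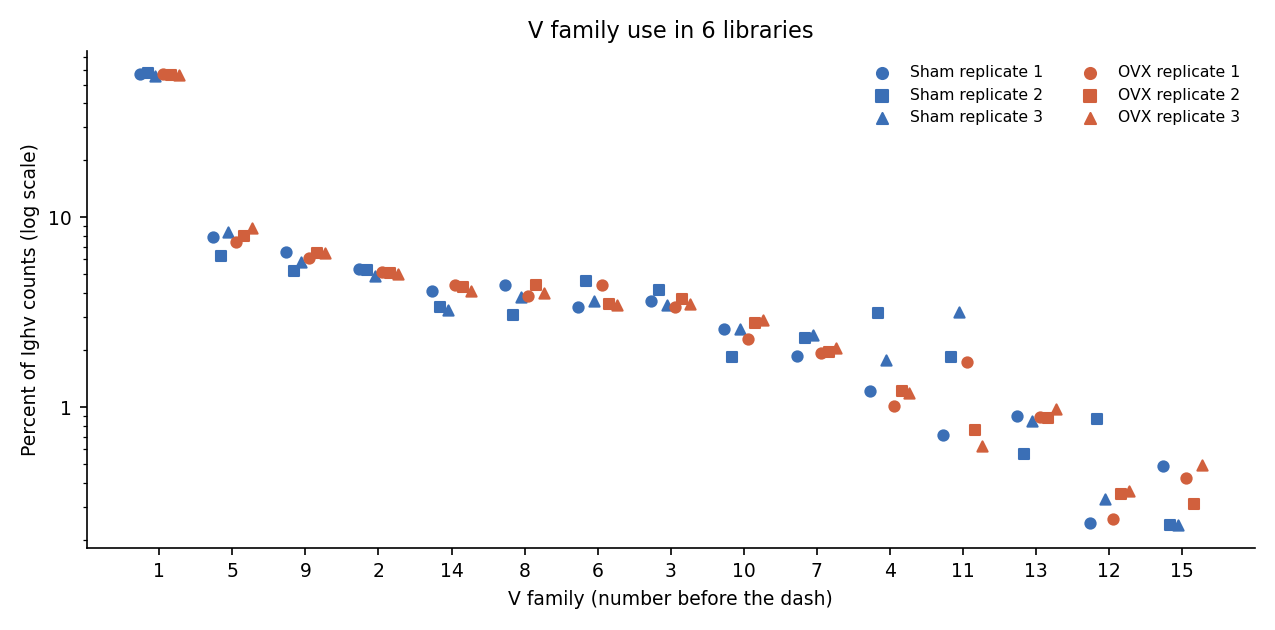
Percent of Ighv counts in each of the 15 counted V families on a log axis, with blue points for the 3 Sham and orange points for the 3 OVX libraries and the marker giving the replicate number. Family 1 lies between 55.5% and 57.3% in all libraries, while families 4, 11 and 12 spread widely among the Sham libraries.

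The families that differed most between libraries were 3 small ones, each made up almost wholly of 1 segment. Family 11 ranged 5.04-fold between its highest and lowest library, family 12 ranged 3.49-fold and family 4 ranged 3.10-fold. Family 1, by contrast, ranged 1.03-fold. Ighv11-2 made up 97.2% of family 11, Ighv12-3 made up 99.8% of family 12 and Ighv4-1 made up 95.7% of family 4.

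Ighv11-2 (ENSMUSG00000096108, chr12:114048241-114048704), a segment known from B-1 cells, which are long-lived B cells that make natural antibody, had 212, 932 and 1253 counts in Sham and 535, 274 and 233 in OVX. Family 11 as a whole had 0.712%, 1.84% and 3.17% of Ighv counts in Sham and 1.73%, 0.755% and 0.628% in OVX. Sham replicates 2 and 3 and OVX replicate 1 were high. These are the 3 libraries with the highest share of Igha among constant gene counts, and also with the highest sums of the neutrophil genes. The 95% Wilson intervals of the lowest of these 3 and the highest of the other 3 were 1.595% to 1.88% and 0.673% to 0.846%. The means were 1.91% ± 1.23 and 1.04% ± 0.605 (SD, n = 3 each; p = 0.3 by two-sided exact permutation), and the difference was -0.24 percentage points without Sham replicate 3 against -0.87 with it. The log2 fold change of the Ighv11-2 level was -1.27 (standard error 0.64, adjusted p = 0.811 by the edgeR quasi-likelihood F test), the lowest of the tested members, and it was -0.72 without Sham replicate 3 and -1.88 without OVX replicate 1.

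Ighv12-3 (ENSMUSG00000076676, chr12:114366526-114366819), likewise known from B-1 cells, had a different order. Its counts were 74, 447 and 132 in Sham and 81, 133 and 146 in OVX. Sham replicate 2 alone stood apart, with 0.862% of Ighv counts, where the other 5 libraries had 0.244% to 0.361%. The log2 fold change of its level was -0.96 (standard error 0.55), and -0.03 without Sham replicate 2. So 1 library gave nearly the whole of this difference.

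Ighv4-1 (ENSMUSG00000076655, chr12:113948284-113948577) had 349, 1577 and 698 counts in Sham and 307, 431 and 458 in OVX. Family 4 was the only one of the 15 counted families whose shares did not overlap between groups, with 1.22%, 3.15% and 1.78% in Sham and 1.02%, 1.21% and 1.19% in OVX. Shares of Ighv counts have no counterpart over all genes, of which 4.12% were separated downward and 4.33% upward in CPM. The gap between the groups was narrow, since the 95% Wilson interval was 1.10% to 1.35% in Sham replicate 1 and 1.11% to 1.33% in OVX replicate 2. The means were 2.05% ± 0.991 and 1.14% ± 0.109 (SD, n = 3 each; p = 0.1 by two-sided exact permutation, adjusted p = 0.667 over the 15 families). The log2 fold change of the family 4 level was -1.22 (standard error 0.42, adjusted p = 0.812 by the edgeR quasi-likelihood F test), and -0.60 without Sham replicate 2. In CPM the groups of family 4 overlapped.

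Fitted as summed rows among all genes, 14 of the 15 counted families had a log2 fold change below 0, and none passed the test (adjusted p of 0.812 or more, edgeR quasi-likelihood F test, Benjamini-Hochberg adjusted). Of all genes tested singly, 51.8% were below 0. Families 2 and 4 had an unadjusted p under 0.05, of 0.042 and 0.023. Both were lower in OVX, beside 2.28% of all genes lower and 1.47% higher at that level. This count of 2 families was 10 without Sham replicate 1, and 1 without Sham replicate 3 or OVX replicate 1. It was 0 without Sham replicate 2 or OVX replicate 3, 7 with no filter, 6 with DESeq2 and 3 with the replicate block. Over all genes, the shares lower and higher were 9% and 7.81% without Sham replicate 1 and 1.52% and 0.788% without Sham replicate 2. They were 3.3% and 1.33% with no filter, 2.01% and 0.744% with DESeq2 and 0.862% and 0.484% with the replicate block. Family 15 was the 1 family above 0, with 0.10, and it was -0.03 without Sham replicate 3. Families 10 and 13 were 0.03 and 0.10 without Sham replicate 3, and family 14 was 0.06 without Sham replicate 2. No family had CPM levels that did not overlap between groups, while 4.12% of all genes tested were separated downward and 4.33% upward.

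By place in the locus, the 183 symbols were split into 3 runs of 61, counted from the D segments. The D-proximal run, chr12:113572929-114314479, held 30.8%, 31.2% and 32.8% of Ighv counts in Sham and 30.8%, 31.0% and 31.3% in OVX. The middle run, chr12:114320030-114937544, held 31.2%, 31.3% and 29.2% in Sham and 31.2%, 31.2% and 32.6% in OVX. The D-distal run, chr12:114945950-116009954, which has families 1 and 8 only, held 38.0%, 37.4% and 38.0% in Sham and 38.0%, 37.8% and 36.1% in OVX. The 3 shares varied by a few percentage points in all, and the groups overlapped in each (p = 0.6, 0.4 and 0.5 by two-sided exact permutation, n = 3 each). The D-proximal share was 0.59 percentage points lower in OVX, and 0.01 higher without Sham replicate 3. Ighv5-2, the V segment nearest to the D segments among those RefSeq does not list as pseudogenes, had 269, 284 and 301 counts in Sham and 260, 323 and 388 in OVX, with a log2 fold change of 0.01 (standard error 0.14) that was -0.06 without Sham replicate 2 and -0.02 without OVX replicate 3. Ighv2-2, beside it, had 615, 1058 and 668 counts in Sham and 603, 663 and 716 in OVX, and its log2 fold change was -0.37 (standard error 0.15), or -0.19 without Sham replicate 2.

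Of the 185 members, 111 passed the filter on low counts and were tested, 103 of them V segments and 8 pseudogenes. None was called at an adjusted p under 0.05 with a difference of 1.6-fold or more (edgeR quasi-likelihood F test, Benjamini-Hochberg adjusted over the 15305 genes tested, lowest adjusted p of a member 0.811). The background was the same, with 0% of all genes called higher and 0% called lower. At an unadjusted p under 0.05, 12 members were lower and 0 higher in OVX, 10.8% of those tested, where 2.28% of all genes tested were lower and 1.47% higher. DESeq2 gave 15 lower and 0 higher at that level, against 2.01% lower and 0.744% higher over its own 27412 genes. Leaving out Sham replicate 1, 2 or 3 made the count of 12 lower members 29, 4 or 8, and leaving out OVX replicate 1, 2 or 3 made it 5, 7 or 3. The share of all genes lower at that level moved too, to 9%, 1.52% or 0.988% without Sham replicate 1, 2 or 3 and to 4.32%, 0.763% or 2.03% without OVX replicate 1, 2 or 3. Without OVX replicate 1 the 5 of 114 tested members were near that background, and so were the 3 of 112 without OVX replicate 3. The count was 4 with the replicate number as a block, beside 0.862% of all genes, 19 of 144 members without the filter, beside 3.30%, and 4 when libraries were scaled by their Ighv totals, beside 0.902%. Members share libraries and the cells in them, so these counts do not add up independent tests.

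The log2 fold changes of the 111 tested members ran from -1.27 to 1.06 with a median of -0.19, beside -0.01 over all genes tested. Values were below 0 for 87 of them, 78.4%, beside 51.8% of all genes. When the libraries were scaled by their total of Ighv counts, an alternative added after the data were seen that sets the change of the Ighv total to nothing by construction, the median was 0.08, with 67 members above 0 and 44 below. The median of all genes moved alike, to 0.25, so the members stayed below it. In CPM, 10 tested members had every OVX library below every Sham library and 1 had every OVX library above, which is 9.01% and 0.901% of those tested beside 4.12% and 4.33% of all genes tested. As shares of Ighv counts, 3 of the 111 tested members were separated in each direction. The 4.12% and 4.33% of all genes were taken in CPM, so they are not a like measure.

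The tested member with the lowest p was Ighv3-5 (ENSMUSG00000076670, chr12:114262652-114262950), with 48, 91 and 90 counts in Sham and 30, 37 and 41 in OVX. These were 0.158%, 0.175% and 0.223% of Ighv counts in Sham and 0.0952%, 0.0960% and 0.101% in OVX. Every OVX library lay below every Sham library both in CPM and in share. The log2 fold change of level was -1.23 (standard error 0.28, unadjusted p = 0.0032, adjusted p = 0.811 by the edgeR quasi-likelihood F test), and it lay between -1.44 and -1.07 with any 1 library left out. Scaled by Ighv totals it was -0.93.

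Ighv1-49 (ENSMUSG00000076710, chr12:115055223-115055516) was the other member separated in both measures with an unadjusted p under 0.05. It had 95, 192 and 117 counts in Sham and 69, 76 and 69 in OVX, or 0.313%, 0.370% and 0.290% of Ighv counts in Sham and 0.219%, 0.197% and 0.171% in OVX. Its log2 fold change of level was -1.03 (standard error 0.26, unadjusted p = 0.00529, adjusted p = 0.811 by the edgeR quasi-likelihood F test). Without any 1 library it was between -1.19 and -0.79, and -0.73 when scaled by Ighv totals. Both segments are lowly used, and together they held less than 1% of Ighv counts in every library.

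The next lowest p-values were those of Ighv1-78, Ighv1-31 and Ighv4-1. Ighv1-78 had 327, 477 and 398 counts in Sham and 309, 332 and 359 in OVX, and its log2 fold change was -0.41 (standard error 0.13). Its groups were separated in CPM and overlapped as shares. Ighv1-31 had 63, 97 and 52 counts in Sham and 37, 44 and 56 in OVX, with -0.78 (standard error 0.26), and was likewise separated in CPM only. Of the 12 members with an unadjusted p under 0.05, 6 were separated in CPM, which were Ighv3-5, Ighv1-49, Ighv1-78, Ighv1-31, Ighv2-2 and Ighv8-6. Ighv8-6, Ighv1-71, Ighv2-6, Ighv7-3 and Ighv1-80 were named after their values were seen. The 12 together held 12.1% to 15.6% of Ighv counts.

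The 5 members with the lowest p among those higher in OVX were Ighv1-34, Ighv6-5, Ighv1-2, Ighv5-1 and Ighv3-3, and none had a p under 0.05. Ighv1-34 had 95, 86 and 91 counts in Sham and 187, 140 and 96 in OVX, and its log2 fold change was 0.53 (standard error 0.35), or 0.14 without OVX replicate 1. Ighv6-5 had 7, 11 and 6 counts in Sham and 12, 11 and 16 in OVX, and was the 1 member separated upward in CPM, with 0.54 (standard error 0.39). Sham replicate 2 and OVX replicate 2 both had 11 counts, so its separation in CPM rested on library size. Ighv5-1, a pseudogene at the D-proximal end of the locus, had 11, 0 and 3 counts in Sham and 4, 13 and 18 in OVX. Its log2 fold change of 1.06 (standard error 0.97) was the highest of the tested members and rested on counts near the filter, and it was 0.44 without Sham replicate 2 and 2.70 without Sham replicate 1.

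**Figure D4:**
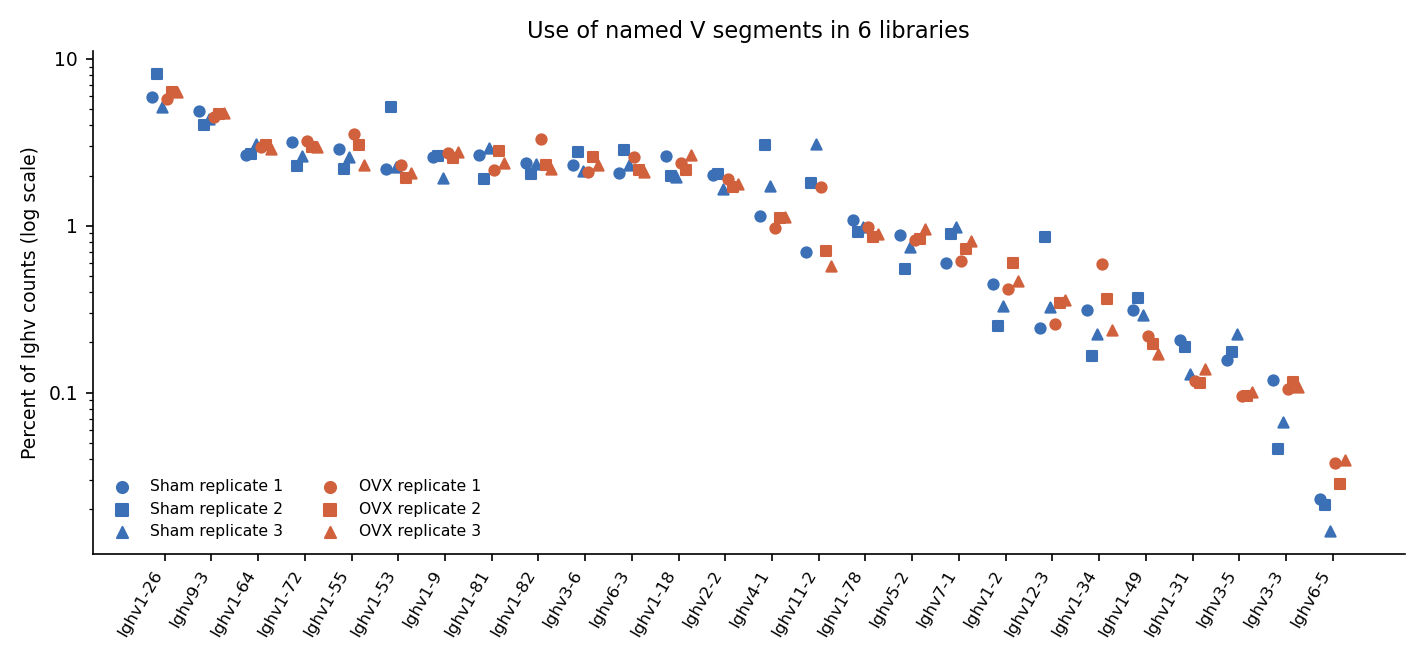
Percent of Ighv counts of 26 V segments in each of the 6 libraries on a log axis, in falling order of mean share, with blue points for Sham and orange points for OVX and the marker giving the replicate number; Ighv5-1 is left out because it has no count in Sham replicate 2. Sham replicate 2 stands apart at Ighv1-53, with 5.13%, and at Ighv12-3, with 0.862%. The groups are separated at Ighv4-1, Ighv1-49, Ighv3-5 and Ighv6-5, the last of which has few counts.

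The segment profiles of the libraries did not sort by surgery. The share of Ighv counts that would have to move to other segments to make 2 libraries equal was smallest for Sham replicate 1 and OVX replicate 3, at 5.02%, followed by Sham replicate 1 and OVX replicate 2, at 5.62%, and OVX replicates 2 and 3, at 5.94%. Sham replicate 2 differed from each of the others by 14.3% to 16.8%, and Sham replicate 3 by 10.6% to 14.6%. OVX replicate 1 lay between, at 8.84% to 14.3%. The 3 closest libraries are those with the lowest share of Igha among constant gene counts, and also with the lowest sums of the neutrophil genes. Every pair differed by more than counting noise, with a chi-square per degree of freedom between 3.22 and 31.2, so none was the same set of reads deposited again.

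**Figure D5:**
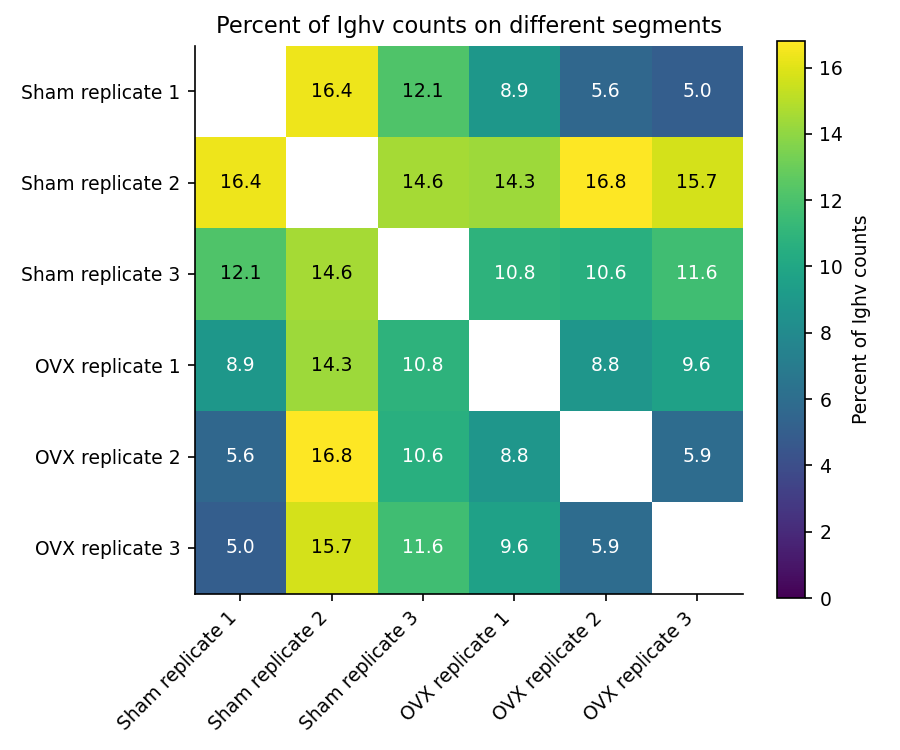
Percent of Ighv counts on different segments for each pair of the 6 libraries, with colour and number giving the percent. Sham replicate 1 is closer to OVX replicates 2 and 3, at 5.6% and 5.0%, than to the other Sham libraries, at 16.4% and 12.1%.

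The genes that act on the locus or mark the stages of the cells were set beside these values. Of 26 genes of heavy chain recombination and locus folding, such as the recombinase genes Rag1 and Rag2, Pax5, Ctcf and the cohesin gene Rad21, 22 had a log2 fold change above 0 and 4 below, with a median of 0.16, beside -0.01 over all genes, and none passed the test. Of all genes tested, 51.8% were below 0. Ebf1, a transcription factor that opens the heavy chain locus early in B cell development, was the 1 gene of the 26 with an unadjusted p under 0.05. It had 521, 382 and 454 CPM in Sham and 550, 588 and 595 CPM in OVX, with no overlap, and its log2 fold change was 0.35 (standard error 0.12, adjusted p = 0.811 by the edgeR quasi-likelihood F test). Over all genes tested, 1.47% were higher and 2.28% lower at an unadjusted p under 0.05. In CPM, 4.33% were separated upward and 4.12% downward. Xrcc5, another of the 26, was separated downward, with a log2 fold change of -0.14. The 3 octamer factor genes, whose proteins bind the octamer of V promoters, had values of 0.03 (Pou2f1), -0.24 (Pou2f2) and 0.15 (Pou2af1).

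Of the 11 genes of pro-B and pre-B cells, 9 had a log2 fold change above 0, with a median of 0.23, and of the 9 genes of mature B cells 8 were below 0, with a median of -0.34. Of all genes tested, 51.8% were below 0. The exceptions were Kit at -0.21 and Vpreb2 at -0.06 in the first list and Ccr7 at 0.06 in the second. None of either list passed the test. Dntt, whose enzyme adds bases at the V, D and J joints in pro-B cells, had 345, 162 and 118 CPM in Sham and 203, 299 and 366 in OVX, so that Sham replicate 1 and OVX replicates 2 and 3 were its 3 highest libraries. Fcer2a, the gene of CD23 on mature B cells, had 12290 counts in Sham replicate 2 against 3222 to 5600 in the other 5. Sham replicate 2 was therefore the highest library for this mature B cell gene as well as for the Ighv total.

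Among the 12 plasma cell genes, 7 had a log2 fold change below 0 and 5 above, beside 51.8% of all genes below 0, and none passed the test. An unadjusted p under 0.05 was reached by 2, both lower in OVX, beside 2.28% of all genes lower and 1.47% higher at that level. Jchain, which encodes the chain that links IgA and IgM into polymers, had 2647, 18185 and 12822 counts in Sham and 6305, 2989 and 2354 in OVX. Its high libraries, Sham replicates 2 and 3 and OVX replicate 1, were those of Igha and of Ighv11-2. The summed neutrophil genes were highest in the same libraries, with 2446, 3248 and 8974 CPM in Sham and 3883, 1079 and 1149 CPM in OVX. So was the T cell gene Cd3e, with 8, 33 and 32 counts in Sham and 19, 3 and 3 in OVX. The summed macrophage genes had another order, with 682, 1443 and 412 CPM in Sham and 368, 412 and 1216 CPM in OVX. Whether these values are linked was not tested. Other plasma cell genes had another order than Jchain. Sdc1, which encodes a surface protein of plasma cells, had 85.6, 51.4 and 71.3 CPM in Sham and 89.6, 94.97 and 68.2 CPM in OVX, and Irf4, a transcription factor of plasma cells and B cells, had 527, 392 and 491 CPM in Sham and 549, 587 and 487 CPM in OVX. Sham replicate 2, the highest library for Jchain, was the lowest for both. The 5 genes above 0 were Sdc1 at 0.28, Irf4 at 0.20, Slamf7 at 0.19, Eaf2 at 0.16 and Mzb1 at 0.06. The log2 fold change of Jchain was -1.55 (standard error 0.68), that of Prdm1, the master regulator of plasma cells, was -0.93 (standard error 0.36) and that of Tnfrsf17, their survival receptor BCMA, was -1.33 (standard error 0.54), with an adjusted p of 0.811 for each (edgeR quasi-likelihood F test). Prdm1 and Tnfrsf17 were the 2 with an unadjusted p under 0.05, and without Sham replicate 2 their values were -0.56 and -0.84. Tnfrsf17 had only 5 to 32 counts per library. The part of plasma cell and mature B cell RNA in the Ighv values was not tested.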

How the data were processed

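RNA-seq of bone marrow B cells was analysed for 3 Sham and 3 OVX libraries, grouped by the treatment given in the labels. The other 2 samples of the series, a ChIP-seq library and its input, were not analysed here. For each library the authors deposited raw read counts by Ensembl identifier, without normalization. The submitters' processing notes name mm10, CASAVA and Bowtie 0.12.2, while the counting program, its annotation and its use of strand are not given in the sources used here. How reads over V(D)J joints, mutated V segments or near-identical segments were assigned is therefore not known, and such reads may be missing or misplaced. The labels name Trizol and the Illumina TruSeq kit, and the study's methods name other RNA reagents.

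Symbols were matched to 54409 of 54532 identifiers by a table of gene names, and positions, lengths and pseudogene status were taken from RefSeq (GRCm38.p6). No segment sequence was used. The analysis of counts used edgeR 4.0.16 in R 4.3.3. Rows passing filterByExpr by group were scaled by TMM, and the groups were compared on the whole table by the quasi-likelihood F test with p-values adjusted by Benjamini-Hochberg. Calls needed an adjusted p under 0.05 and at least a 1.6-fold difference. The standard error is the log2 fold change divided by the square root of F. The Ighv total and the V families were fitted as summed rows in the same way. Shares, evenness and position were compared by two-sided exact permutation tests with Python 3.11.15 and scipy 1.17.1, and 95% Wilson intervals and a floor of 3 counts were given for shares. The fit was tested on simulated data.

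The members, lists and tests were chosen with earlier results of these data known. Segments were named if they were among the 12 with the highest mean share, the 5 with the lowest p in each direction or the most counted of a library, or were one of 8 named for their place or known use (Ighv5-2, Ighv2-2, Ighv11-2, Ighv12-3, Ighv7-1, Ighv6-3, Ighv1-72 and Ighv1-26). Alternatives were DESeq2 1.42.0, library size only, upper-quartile factors, no filter, 10 or more counts on average, no fold threshold, a replicate block, each library left out, log2 shares, and shares without rare segments or without the leading segment. Scaling by Ighv totals and division by length were added after the data were seen.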

Additional observations from a re-analysis of the deposited data

How the results depend on the processing

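No Ighv member was called in any of the 14 fits of all genes, whose lowest adjusted p over all genes was 0.273. Scaling libraries by their Ighv totals sets the change of the total to nothing by construction and moves all genes alike, with their median at 0.25. It put the median log2 fold change of the tested members at 0.0804, and those of families 5 and 9 at 0.10 and 0.12, of Ighv9-3 at 0.0694, Ighv1-64 at 0.0748, Ighv1-72 at 0.18, Ighv1-55 at 0.22, Ighv1-9 at 0.17, Ighv1-82 at 0.21 and Ighv1-18 at 0.13, all below that median, so these changes of sign follow from the scaling. With library size only, Ighv5-2 was at -0.0075. The number of families whose shares did not overlap was 1 to 8 with a library left out, with the 8 reached without Sham replicate 1. Separation is easier to reach with a library fewer, and shares of Ighv counts have no counterpart over all genes. With the replicate block, 2 families had all 3 paired differences of the same sign, which the smallest paired p of 0.25 does not call. The share difference of family 1 was 0.0392 without the most counted segment of each library. With a library left out, the differences ran from -1.18 to 3.72 for the inverse Simpson number, from -0.98 to 0.0104 for the D-proximal share, from -0.61 to 0.30 for the share of family 1, from -0.27 to 0.0345 for that of family 12 and from -0.0654 to 0.99 for that of family 5, and the log2 fold changes from -0.18 to 0.14 for Ighv1-55, from -0.25 to 0.0879 for Ighv1-9, from -0.27 to 0.0710 for Ighv1-82 and from -0.0637 to 0.0678 for Ighv5-2. The cause of the changes with a library left out was not tested. The total Ighv level was -0.29 with DESeq2, -0.31 with library size only and -0.28 with the replicate block. Whether the replicate numbers pair the samples is not known. Across genes, the deviations of same-numbered libraries from their group means correlated at -0.41, -0.19 and -0.28, and those of other pairs at -0.197 to 0.433. These values give no sign of pairing, and they cannot exclude it. A fit of the Ighv rows alone was planned and not run, because it would adjust over the list alone, and scaling by Ighv totals took its place. Ighv6-5 and Ighv5-1 have no value under 1 alternative each, where they fell below the filter, and the total has none with Ighv scaling. Depth limits the rarely used segments, and 3 libraries per group cannot reach a permutation p below 0.1.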

Other observations

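The joining segments of the same locus were looked at after the data were seen. Ighj1 had 181, 326 and 205 counts in Sham and 157, 188 and 206 in OVX, with a log2 fold change of -0.51 (standard error 0.19). Ighj2 had 246, 359 and 254 counts in Sham and 208, 177 and 212 in OVX, with -0.66 (standard error 0.18). Ighj3 and Ighj4 had -0.31 and -0.17. In CPM every OVX library lay below every Sham library for Ighj1, Ighj2 and Ighj4, and the groups overlapped for Ighj3, while 4.12% of all genes tested were separated in this direction. All 4 were below 0, as were 51.8% of all genes, 2 of them had an unadjusted p under 0.05, beside 2.28% of all genes that were lower at that level, and none passed the test (adjusted p of 0.811 for Ighj2, edgeR quasi-likelihood F test, Benjamini-Hochberg adjusted).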
